A study of Homo sapiens with 12 samples.

Results

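The cytosolic ribosomal protein genes were taken as the listed genes whose symbol starts with RPL or RPS in the standard form, P proteins and close paralogues included, together with RPSA, while S6 kinases were not taken. This gave 58 of the 8842 listed genes, 36 of the large subunit and 22 of the small subunit, and 58 of 58 passed the filter on low values in every comparison. The libraries are from HepG2 and LM3, both established human lines of liver cancer, which had received either an siRNA to the long noncoding RNA FASRL (siFASRL) or a control siRNA (siNC) 48 h earlier. Each of the 4 groups (HepG2 siFASRL, HepG2 siNC, LM3 siFASRL and LM3 siNC) had 3 replicates, 12 libraries in all, and the labels do not give which siRNA sequence was used. The study asks how a lncRNA driven by a superenhancer acts on lipid metabolism in liver cancer cells. FASRL itself, RPL12, RPL22L1 and RPS27 were not analysed here.

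Cytosolic ribosomal proteins bind ribosomal RNA in the nucleolus to form the large and the small subunit, and most are needed in equal number in each ribosome. Their mRNAs are among the most abundant in growing cells and typically start with a run of pyrimidines, the 5 prime TOP motif, through which mTORC1 and LARP1 set their translation. The P-stalk is a flexible arm of the large subunit in which RPLP0 anchors dimers of RPLP1 and RPLP2, and it recruits and activates the GTPases that drive translation.

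Values are the authors' normalized RSEM expression values, taken here to be scaled for gene length, which the files do not state. Where levels of different genes are compared below, the comparison rests on this. They are not counts, and the depth of each library is unknown. Markers were compared with the label of liver cancer cells. The summed value of the 10 listed hepatocyte markers of 12, with SERPINA1 as the most abundant, was 4893, 4842 and 4427 in HepG2 siNC replicates 1 to 3 and 2562, 2583 and 2627 in HepG2 siFASRL. In LM3 it was 14.8, 19.5 and 17.6 in siNC and 7.59, 7.69 and 6.34 in siFASRL. Albumin (ALB) averaged 815 in HepG2 siNC and 0.36 in LM3 siNC, so the markers that define hepatocytes were at or near 0 in LM3, where HNF4A made up most of the sum. The summed value of the 4 listed fibroblast markers of 5 was 56.5, 56.0 and 57.9 in HepG2 siNC, where COL3A1 was the highest, and 30.9, 27.8 and 28.1 in HepG2 siFASRL. In LM3 the fibroblast sum was 15.1, 14.3 and 13.2 in siNC and 4.69, 5.86 and 5.25 in siFASRL, with DCN at 0 in every siFASRL library. VWF, the 1 listed endothelial marker of 3, stayed at or under 0.35 in every library. The leukocyte markers CD68 and LYZ, 2 listed of 4, summed to 127, 123 and 122 in HepG2 siNC and 97.0, 87.2 and 88.8 in HepG2 siFASRL, and to 18.2, 15.1 and 16.2 in LM3 siNC and 18.4, 18.5 and 19.0 in LM3 siFASRL. The hepatocyte and fibroblast sums were thus lower in siFASRL than in siNC libraries of both lines. The leukocyte sum was lower in siFASRL libraries of HepG2 but not of LM3. Within it, mean LYZ went from 82.7 in siNC to 46.1 in siFASRL of HepG2 and from 1.6 to 1.13 in LM3. Mean CD68 went from 41.1 to 44.9 in HepG2 and from 14.9 to 17.5 in LM3. Among the hepatocyte markers, APOA2 averaged 630 in HepG2 siNC and 757 in HepG2 siFASRL, while the other listed ones averaged lower in HepG2 siFASRL. The part of these sums in the ribosomal protein results was not tested.

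In 3 libraries the median deviation of the 58 genes from their group mean was over 0.10 in size on the log2 scale. It was -0.13 in HepG2 siFASRL replicate 1, with 53 of 58 below the group mean, 0.10 in HepG2 siFASRL replicate 2, with 2 of 58 below it, and -0.11 in LM3 siNC replicate 1, with 41 of 58 below it. The 165 other genes that averaged 200 or more had median deviations of 0.00, 0.01 and -0.01 in these libraries. The deviation of a ribosomal protein gene and the GC content of its coding sequence had Pearson's r across the 58 genes, in replicates 1 to 3, of -0.643, 0.502 and 0.620 for the LM3 siNC group, -0.518, 0.567 and -0.535 for HepG2 siNC, 0.576, -0.0914 and -0.608 for LM3 siFASRL and -0.158, 0.254 and 0.0369 for HepG2 siFASRL, although genes are not independent replicates. In 160 of the 165 other genes it was, in the same order, -0.3575, 0.272 and 0.385, then -0.423, 0.546 and -0.401, then 0.204, 0.308 and -0.547, and -0.156, 0.256 and 0.0023, so the relation was not confined to the ribosomal protein genes. The reason for these deviations was not tested. Values without 1 or more of these libraries are given below for the counts and for RPLP1 and RPLP2.

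**Figure D1:**
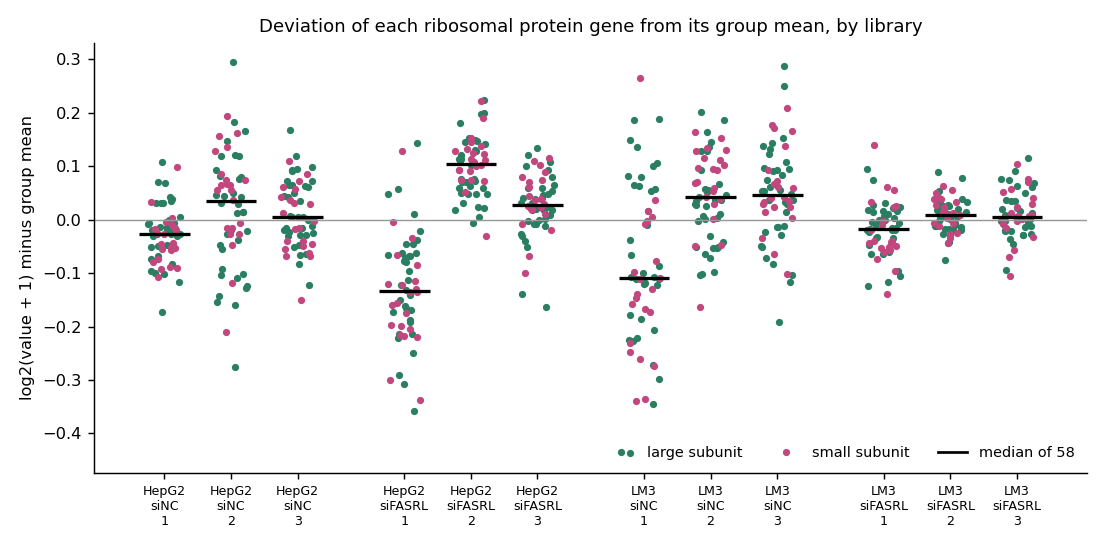
Each point is 1 of the 58 ribosomal protein genes, plotted as its log2(value + 1) in a library minus the mean of its group, with the 12 libraries along the horizontal axis and the median as a bar. The medians of HepG2 siFASRL replicate 1 (-0.13) and LM3 siNC replicate 1 (-0.11) lie lowest, and that of HepG2 siFASRL replicate 2 (0.10) lies highest.

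RPLP0 (gene ID 6175, chromosome 12, 120196699 to 120201111, minus strand of GRCh38) is the core protein of the P-stalk. Its value in HepG2 was 1254, 1506 and 1331 in siNC replicates 1 to 3 and 46.4, 52.9 and 52.8 in siFASRL. In LM3 it was 1799, 2300 and 2247 in siNC and 125, 140 and 140 in siFASRL. Every siFASRL library was far below every siNC library of its line, with no overlap. Set against the siNC mean, 3.72% of RPLP0 was left in HepG2 and 6.38% in LM3. With limma, the log2 fold change was -4.72 (standard error 0.08, adjusted p = 6.79e-10) in HepG2 and -3.95 (standard error 0.10, adjusted p = 1.57e-07) in LM3, lower in 3 of 3 siFASRL libraries of each line. This was the lowest log2 fold change of all 8144 genes tested in HepG2 and of all 7483 tested in LM3. The annotation holds 5 pseudogenes named after RPLP0, and reads may be divided among them.

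The promoters of the P-stalk genes and of the RPL26 pair are shown because the P-stalk proteins work together, and RPL26L1 is a paralogue of RPL26, yet the genes of each set moved by different amounts. Each line gives 100 bases of RefSeq sequence (GRCh38.p14), 80 before and 20 from the annotated start, in the direction of transcription, with the run of C or T at the start in capitals. RPLP0 is chr12:120201092-120201191 (minus strand), RPLP1 is chr15:69452738-69452837 (plus), RPLP2 is chr11:809887-809986 (plus), RPL26 is chr17:8383174-8383273 (minus) and RPL26L1 is chr5:172958649-172958748 (plus).
RPLP0: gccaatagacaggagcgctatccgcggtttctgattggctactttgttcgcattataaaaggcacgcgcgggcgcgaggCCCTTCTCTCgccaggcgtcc
RPLP1: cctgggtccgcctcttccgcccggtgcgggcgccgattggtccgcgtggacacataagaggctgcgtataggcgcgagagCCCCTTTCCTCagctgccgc
RPLP2: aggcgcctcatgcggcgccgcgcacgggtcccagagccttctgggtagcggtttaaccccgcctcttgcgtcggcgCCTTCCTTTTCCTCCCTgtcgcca
RPL26: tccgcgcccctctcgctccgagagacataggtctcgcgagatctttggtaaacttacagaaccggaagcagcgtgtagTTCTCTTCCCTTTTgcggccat
RPL26L1: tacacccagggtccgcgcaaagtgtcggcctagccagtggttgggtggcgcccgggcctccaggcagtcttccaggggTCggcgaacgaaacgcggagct

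RPLP1 and RPLP2 are the acidic proteins that RPLP0 holds in place, and their tails contact the translation factors. RPLP1 had values of 984, 1196 and 994 in HepG2 siNC and 952, 1334 and 1241 in HepG2 siFASRL, and the groups overlapped. In LM3 it had 1033, 1406 and 1412 in siNC and 1596, 1672 and 1743 in siFASRL, without overlap. RPLP2 had values of 849, 857 and 842 in HepG2 siNC and 810, 1016 and 1007 in HepG2 siFASRL, which overlapped, and 519, 703 and 676 in LM3 siNC against 744, 753 and 758 in LM3 siFASRL, which did not. In HepG2 neither passed the limma test, with log2 fold changes of 0.14 for RPLP1 (adjusted p = 0.287) and 0.14 for RPLP2 (adjusted p = 0.136), higher in 2 of 3 siFASRL libraries than every siNC library. Without HepG2 siFASRL replicate 1 both passed, at 0.29 (limma adjusted p = 0.0174) and 0.25 (limma adjusted p = 0.00241), higher in 2 of 2 libraries. Without replicate 2 they were 0.05 and 0.09 and did not pass, and under quantile normalization they were -0.12 and -0.11 and did not pass. RPLP2 in HepG2 also passed (0.20, limma adjusted p = 0.0491, higher in 2 of 3 libraries) with a correction for coding GC content that was chosen after seeing the data.

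In LM3, RPLP1 rose by 0.39 on the log2 scale (limma adjusted p = 0.0129, standard error 0.12) and RPLP2 by 0.26 (limma adjusted p = 0.0481, standard error 0.11), higher in 3 of 3 siFASRL libraries. Without LM3 siNC replicate 1 they were 0.24 (limma adjusted p = 0.00162) and 0.125 (limma adjusted p = 0.0259), higher in 3 of 3 siFASRL libraries, so the sizes of these rises rest in part on that library. Both lost the call under quantile normalization, where RPLP1 was at 0.07 and RPLP2 at -0.01. RPLP1 also lost it without siFASRL replicate 3 (limma adjusted p = 0.0521). RPLP2 lost it without siFASRL replicate 1 (0.0967), replicate 2 (0.101) or replicate 3 (0.117), each a limma adjusted p, as well as with a pseudocount of 0.1, with no filter on low values and with scaling by the summed other genes.

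The level of RPLP0 was compared with those of its partners within each library. RPLP0 over RPLP1 was 1.29 ± 0.0419 (SD, n = 3) in HepG2 siNC and 0.0437 ± 0.00466 (SD, n = 3) in HepG2 siFASRL, and 1.66 ± 0.0776 (SD, n = 3) in LM3 siNC and 0.0807 ± 0.00271 (SD, n = 3) in LM3 siFASRL. RPLP0 over RPLP2 went from 1.60 to 0.0540 in HepG2 and from 3.36 to 0.179 in LM3. RPLP1 over RPLP2, the ratio of the dimer partners, was 1.24 in both groups of HepG2, and 2.03 ± 0.0542 in siNC and 2.22 ± 0.0758 (SD, n = 3) in siFASRL of LM3. The transcript of the anchoring protein thus stood above those of its partners in every siNC library, and was at most 0.186 of either in every siFASRL library.

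**Figure D2:**
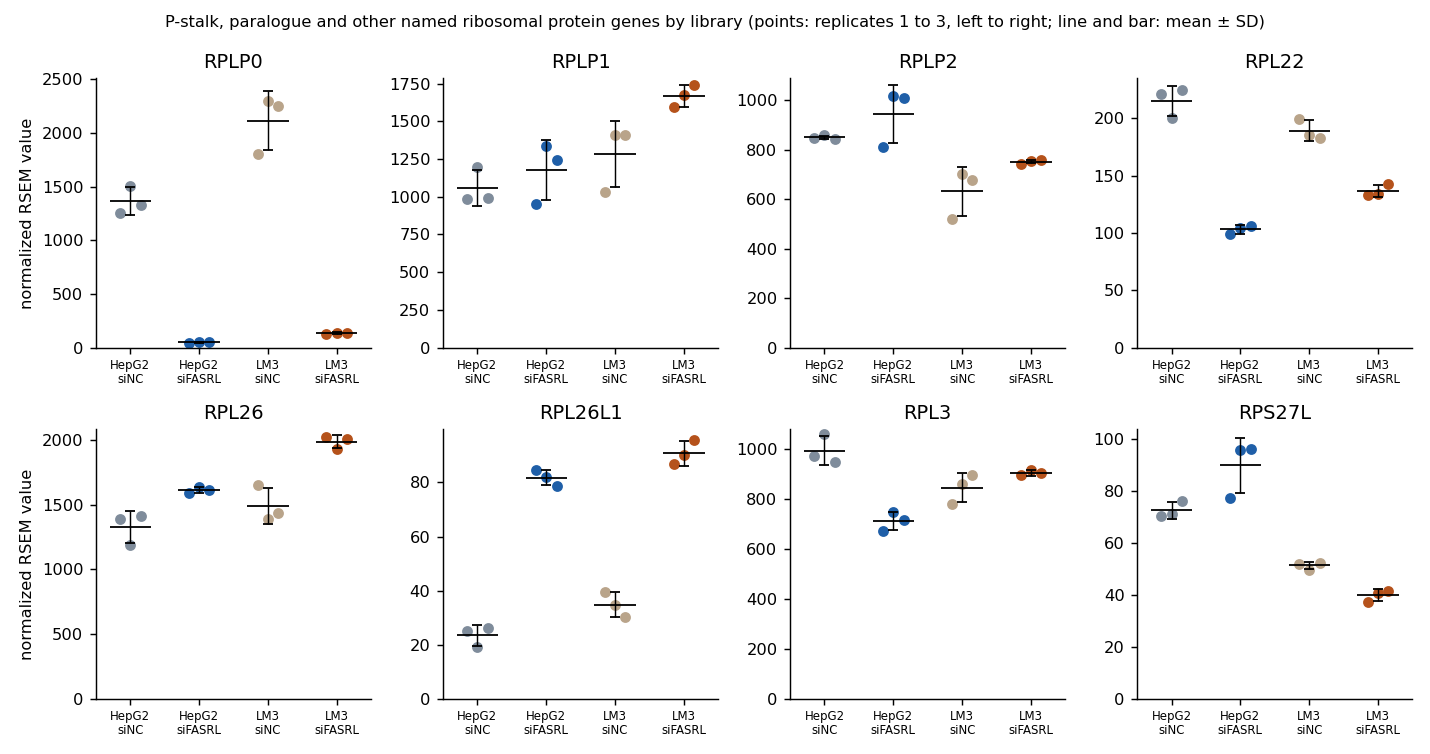
Normalized RSEM value of 8 ribosomal protein genes in each of the 12 libraries (points, replicates 1 to 3 from left to right), with the mean and SD of each group. RPLP0 lies between 46.4 and 140 in the siFASRL libraries and between 1254 and 2300 in the siNC libraries, RPL26L1 lies higher and RPL22 lower in the siFASRL libraries of both lines, and RPS27L lies higher in HepG2 siFASRL and lower in LM3 siFASRL.

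MRTO4 (gene ID 51154), a relative of RPLP0 that occupies the stalk site of the large subunit during assembly, was on the fixed list of chaperones and importers. It had values of 18.6, 20.3 and 18.8 in HepG2 siNC and 29.9, 31.5 and 33.3 in HepG2 siFASRL, and 31.0, 34.6 and 37.9 in LM3 siNC and 59.6, 59.0 and 60.0 in LM3 siFASRL. All siFASRL libraries were above all siNC libraries of the same line. The log2 fold change was 0.69 (standard error 0.06, limma adjusted p = 5.95e-06) in HepG2 and 0.78 (standard error 0.07, limma adjusted p = 1.93e-05) in LM3, higher in 3 of 3 siFASRL libraries of each. The coding sequences of RPLP0 and MRTO4 were 47.6% identical, with no shared stretch longer than 10 bases.

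Of the 11 factors listed as working at the P-stalk, 9 were listed in the data, and 7 rose and 1 fell in HepG2, their median log2 change being 0.34, beside 44.8% and 44.3% of all tested genes. In LM3, 7 rose and 2 fell, with a median of 0.25, beside 33.9% and 43.5% of all. Under quantile normalization 5 rose and 1 fell in HepG2 and 6 and 2 in LM3. EEF2, the GTPase of translocation, had 0.41 in HepG2 (limma adjusted p = 0.000733) and 0.62 in LM3 (limma adjusted p = 0.000216), higher in 3 of 3 siFASRL libraries. EEF1A1, which delivers aminoacyl-tRNA, averaged 2790 in HepG2 siNC and 3134 in HepG2 siFASRL, and 1789 in LM3 siNC and 2379 in LM3 siFASRL. GCN1, which relays ribosome stalling, fell in both lines (-0.30 and -0.20). EIF2AK4, the kinase GCN2 that the stalk can activate, had 0.10 in HepG2 (limma adjusted p = 0.0783, higher in 3 of 3 libraries) and -0.53 in LM3 (limma adjusted p = 2.18e-05, lower in 3 of 3 libraries).

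In HepG2, 36 of the 58 ribosomal protein genes rose and 4 fell after siFASRL at a limma adjusted p under 0.05, which became 14 and 10 under quantile normalization. The same test called 44.8% of the 8144 tested genes higher and 44.3% lower, and under quantile normalization it called 3561 higher and 3278 lower. The median log2 fold change of the 58 was 0.27, against 0.10 over all tested genes, and under quantile normalization it was 0.03, against 0.05 over all, so that the 58 no longer stood above all genes. With a log2 fold change of at least 1 as well, 1 gene (RPL26L1) was higher and 2 (RPLP0 and RPL22) were lower, beside 3.61% and 6.79% of all tested genes. The siFASRL and siNC groups did not overlap for 35 of the 58, 31 higher and 4 lower, against 89.6% of all tested genes. Without HepG2 siFASRL replicate 1, 45 were higher and 4 lower, and without replicate 2, 29 and 4.

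In LM3, 53 of the 58 rose and 4 fell, beside 33.9% of the 7483 tested genes called higher and 43.5% called lower. Under quantile normalization this became 25 and 4, beside 2813 of the 7483 tested genes called higher and 2582 called lower. The median log2 fold change was 0.41, against -0.06 over all tested genes, and under quantile normalization it was 0.15, against 0.03 over all. With the fold threshold, RPL26L1 was higher and RPLP0 lower, 1 gene each, beside 1.42% and 6.20% of all tested genes. The groups did not overlap for 56 of the 58, 52 higher and 4 lower, against 80.1% of all tested genes. Without LM3 siNC replicate 1, the counts were 52 higher and 4 lower. The replicates are not described as separate cultures, so the p-values measure only the spread between these libraries. In bulk RNA, a change in the mix of cells and a change of RNA per cell cannot be told apart.

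**Figure D3:**
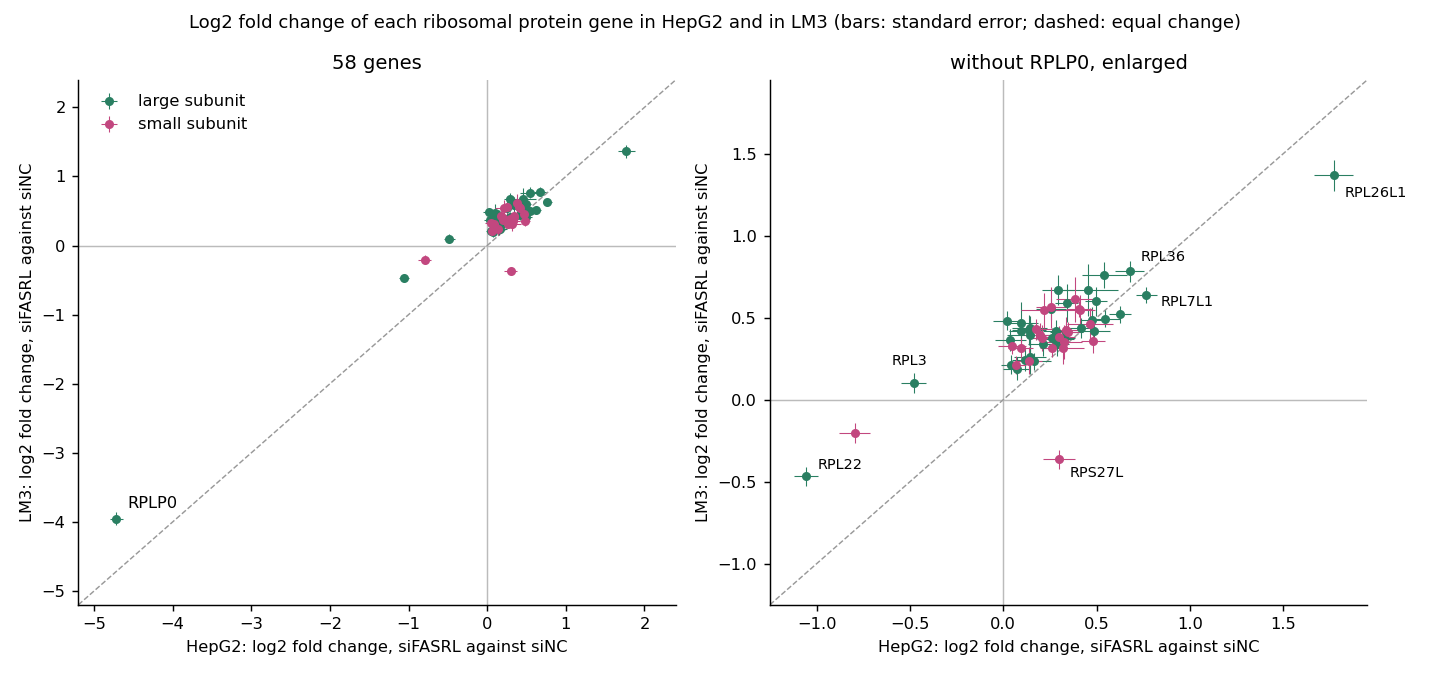
Log2 fold change of siFASRL against siNC for each of the 58 ribosomal protein genes in HepG2 (horizontal axis) and in LM3 (vertical axis), with standard errors, for all genes on the left and without RPLP0 on the right. Most points lie above 0 on both axes, with medians of 0.27 and 0.41 that drop to 0.03 and 0.15 under quantile normalization, and RPLP0, RPL22, RPL3, RPS27L and RPL26L1 lie away from the others.

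Across both lines, 35 of the 58 genes rose in HepG2 and in LM3, and 3 genes, RPLP0 and RPL22 among them, fell in both, beside 29.6% and 36.0% of the 7349 genes tested in both lines, and under quantile normalization it was 10 and 3. RPS27L rose in HepG2 and fell in LM3, RPL3 passed the threshold in HepG2 alone, and the other 18 passed it in LM3 alone, all higher, whereas under quantile normalization 14 genes rose in HepG2 and 25 in LM3. Across the 58 genes, the log2 fold changes of the lines, which share no library, had Pearson's r of 0.962, and without RPLP0 and RPL26L1 it was 0.753 (56 genes). Genes are not independent replicates, so this is a description. Without further normalization, no gene had a log2 fold change between -0.48 and 0.02 in HepG2. Under quantile normalization this range was not empty, with RPL31 at -0.24, RPL29 at -0.20 and RPL9 at -0.15 among the genes in it. The gap thus depended on the normalization.

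The large and the small subunit were compared as groups. Of the 36 large subunit genes, 21 rose and 3 fell in HepG2 (median 0.27) and 33 rose and 2 fell in LM3 (median 0.42), which became 9 and 7 (median 0.03) and 15 and 2 (median 0.15) under quantile normalization. Of the 22 small subunit genes, 15 rose and 1 fell in HepG2 (median 0.28) and 20 rose and 2 fell in LM3 (median 0.38), which became 5 and 3 (median -0.015) and 10 and 2 (median 0.13). Of all tested genes, 44.8% rose and 44.3% fell in HepG2 and 33.9% and 43.5% in LM3. The summed large over the summed small subunit value was 1.505 ± 0.0133 in siNC and 1.45 ± 0.00706 (SD, n = 3) in siFASRL of HepG2, and 1.68 ± 0.0506 and 1.63 ± 0.00834 (SD, n = 3) in LM3. Without RPLP0 the ratio was 1.43 ± 0.0181 in siNC and 1.44 ± 0.00706 (SD, n = 3) in siFASRL of HepG2, and 1.58 ± 0.0574 and 1.63 ± 0.00847 (SD, n = 3) in LM3, and the groups overlapped in both lines. With RPLP0 included, the ratio in LM3 siNC was 1.74 in replicate 1, against 1.64 and 1.67 in replicates 2 and 3. Without RPLP0 it was 1.64, 1.53 and 1.56 in the same order, against 1.62 to 1.63 in LM3 siFASRL. The overlap in LM3 thus came from siNC replicate 1.

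As a share of the summed value of all listed genes, the 58 genes took 13.4%, 13.98% and 13.5% in HepG2 siNC and 13.9%, 15.9% and 15.3% in HepG2 siFASRL. In LM3 they took 15.3%, 16.6% and 16.6% in siNC and 18.8%, 19.0% and 19.0% in siFASRL. The HepG2 groups overlapped, with siFASRL replicate 1 below siNC replicate 2, and the LM3 groups did not. With RPLP0 left out of both sums, the share was 13.1%, 13.6% and 13.2% in HepG2 siNC and 13.9%, 15.9% and 15.3% in HepG2 siFASRL. It was then 14.8%, 16.0% and 16.0% in LM3 siNC and 18.7%, 19.0% and 19.0% in LM3 siFASRL. Without RPLP0 the groups overlapped in neither line. RPLP0 made up 2.98% of the summed ribosomal protein value in HepG2 siNC and 0.0961% in HepG2 siFASRL, and 4.08% and 0.205% in LM3.

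**Figure D4:**
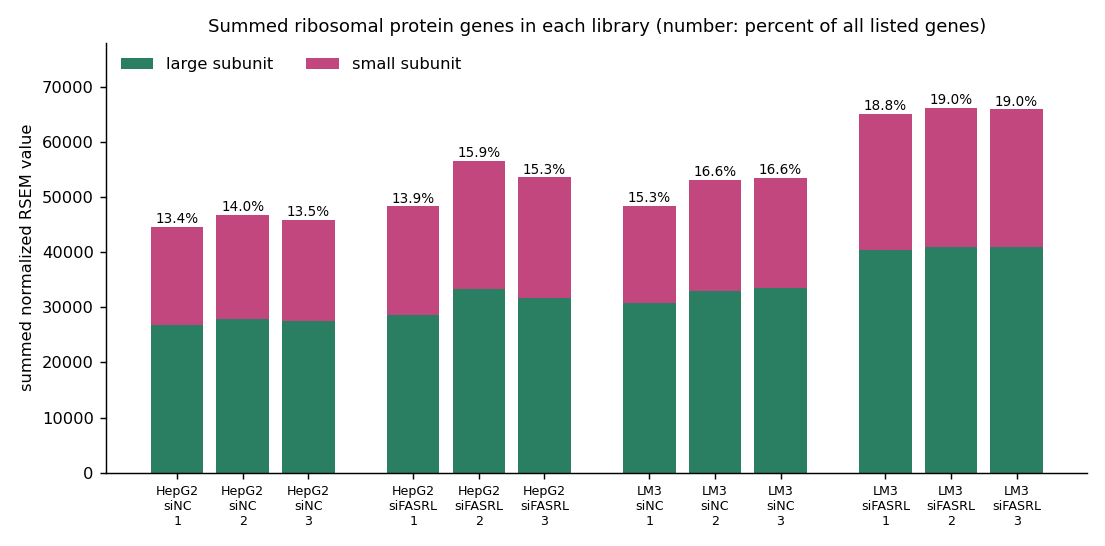
Summed normalized RSEM value of the 36 large and 22 small subunit genes in each library, with the share of all listed genes in percent above each bar. The share is 13.4% to 13.98% in HepG2 siNC, 13.9% to 15.9% in HepG2 siFASRL, 15.3% to 16.6% in LM3 siNC and 18.8% to 19.0% in LM3 siFASRL.

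RPL26L1 (gene ID 51121, chromosome 5, 172954094 to 172969771, plus strand) is a little expressed paralogue of RPL26, which lies near the exit of the peptide tunnel. Its values were 25.1, 19.0 and 26.2 in HepG2 siNC and 84.5, 82.0 and 78.8 in HepG2 siFASRL, and 39.5, 34.7 and 30.2 in LM3 siNC and 86.7, 89.99 and 95.8 in LM3 siFASRL. Every siFASRL library was above every siNC library. In HepG2 siFASRL it averaged 348% of its siNC level, and in LM3 261%. The log2 fold change was 1.77 (standard error 0.11, limma adjusted p = 4.36e-07) in HepG2 and 1.37 (standard error 0.09, limma adjusted p = 3.65e-06) in LM3, higher in 3 of 3 siFASRL libraries of each. Counted from the highest, it stood at position 44 of 8144 tested genes in HepG2 and 38 of 7483 in LM3.

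RPL26 itself (gene ID 6154) had 1389, 1185 and 1410 in HepG2 siNC and 1588, 1639 and 1610 in HepG2 siFASRL, and 1650, 1389 and 1436 in LM3 siNC and 2024, 1927 and 2010 in LM3 siFASRL. The siFASRL libraries were again the higher ones, with log2 fold changes of 0.28 (limma adjusted p = 0.00449) and 0.42 (limma adjusted p = 0.000686), higher in 3 of 3, which were 0.04 and 0.13 under quantile normalization, where both calls were lost. RPL26L1 amounted to 1.76% ± 0.134 of RPL26 in HepG2 siNC and 5.07% ± 0.222 (SD, n = 3) in HepG2 siFASRL, and to 2.33% ± 0.206 and 4.57% ± 0.254 (SD, n = 3) in LM3. Their coding sequences were 84.1% identical (366 of 435 bases), and the longest stretch they share was 20 bases.

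RPL7L1, a nucleolar relative of RPL7, had 43.5, 44.8 and 43.4 in HepG2 siNC and 72.2, 77.0 and 77.0 in HepG2 siFASRL, and 36.4, 37.6 and 38.3 in LM3 siNC and 58.7, 57.95 and 59.5 in LM3 siFASRL. The groups did not overlap in either line. It rose by 0.77 in HepG2 (standard error 0.06, limma adjusted p = 1.25e-06) and by 0.64 in LM3 (standard error 0.05, limma adjusted p = 5.91e-06), higher in 3 of 3. RPL7 rose by 0.29 and 0.34 (limma adjusted p = 0.00234 and 0.00219, higher in 3 of 3), and both calls were lost under quantile normalization, at 0.01 and 0.12. RPL7L1 was 4.59% of RPL7 in HepG2 siNC and 6.46% in siFASRL, and 3.78% and 4.68% in LM3, and their coding sequences were 57.8% identical.

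RPL22 (gene ID 6146, chromosome 1, 6185020 to 6199595, minus strand) is an RNA-binding protein of the large subunit that development of T cells depends on. Its values were 221, 200 and 224 in HepG2 siNC and 98.6, 105 and 106 in HepG2 siFASRL, and 200, 185 and 183 in LM3 siNC and 133, 134 and 142 in LM3 siFASRL. All siFASRL libraries were below all siNC libraries. In HepG2 siFASRL it averaged 47.9% of its siNC level, and in LM3 72.2%. The log2 fold change was -1.05 (standard error 0.06, limma adjusted p = 4.63e-07) in HepG2 and -0.47 (standard error 0.06, limma adjusted p = 9.45e-05) in LM3, lower in 3 of 3. Counted from the lowest, RPL22 stood at position 483 of 8144 tested genes in HepG2 and 1863 of 7483 in LM3, so many genes outside the family fell more.

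RPL3, a large subunit protein next to the peptidyl transferase centre, had 973, 1058 and 947 in HepG2 siNC and 673, 746 and 715 in HepG2 siFASRL, without overlap. In LM3 it had 780, 859 and 893 in siNC and 893, 916 and 902 in siFASRL, where the highest siNC and the lowest siFASRL library were nearly level. It fell by 0.48 in HepG2 (standard error 0.07, limma adjusted p = 8.16e-05, lower in 3 of 3) and had 0.10 in LM3 (limma adjusted p = 0.159, higher in 3 of 3). In LM3 it passed with median-of-ratios scaling (0.18, limma adjusted p = 0.0273) and with the correction for coding GC content (0.18, limma adjusted p = 0.0157). Under quantile normalization it was -0.79 in HepG2 and -0.04 in LM3.

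RPS27L, a paralogue of RPS27, had 70.2, 71.1 and 76.2 in HepG2 siNC and 77.4, 95.9 and 96.0 in HepG2 siFASRL, and 51.9, 49.6 and 52.4 in LM3 siNC and 37.1, 40.8 and 41.3 in LM3 siFASRL. It was higher in HepG2 siFASRL and lower in LM3 siFASRL, with no overlap in either line. The log2 fold change was 0.30 (standard error 0.09, limma adjusted p = 0.00879, higher in 3 of 3) in HepG2, where the call was lost under quantile normalization (0.14), and -0.36 (standard error 0.06, limma adjusted p = 0.000499, lower in 3 of 3) in LM3.

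With RPL26L1, the 3 highest log2 fold changes were those of RPL7L1 and RPL36 in HepG2 and of RPL36 and RPL17 in LM3. RPL36, a short protein of the large subunit, had 439, 442 and 432 in HepG2 siNC and 624, 774 and 710 in HepG2 siFASRL, and 480, 531 and 557 in LM3 siNC and 907, 893 and 891 in LM3 siFASRL. It rose by 0.68 in HepG2 (limma adjusted p = 2.59e-05) and by 0.78 in LM3 (limma adjusted p = 8.73e-06), higher in 3 of 3. RPL17, which reaches into the wall of the peptide tunnel, averaged 692 ± 53.2 (SD, n = 3) in HepG2 siNC and 1018 ± 181 (SD, n = 3) in HepG2 siFASRL, and 645 ± 70.3 and 1091 ± 7.39 (SD, n = 3) in LM3, and it rose by 0.54 and 0.76. Under quantile normalization RPL36 was at 0.40 and 0.56 and RPL17 at 0.24 and 0.51. RPL17 shares exons with an annotated readthrough transcript into C18orf32, and RPSA has near-identical processed copies, so the values of both are uncertain.

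The most abundant ribosomal protein gene was RPS2, which lines the entry of the mRNA channel, with a mean of 1951 ± 158 (SD, n = 3) in HepG2 siNC and 3175 ± 424 (SD, n = 3) in LM3 siNC. It rose by 0.41 in HepG2 and by 0.55 in LM3, to 2597 and 4611. Group means of the 58 genes ran from 23.5 to 1951 with a median of 795 in HepG2 siNC, and from 50.7 to 2597 with a median of 902 in HepG2 siFASRL. In LM3 they ran from 34.8 to 3175 with a median of 831 in siNC, and from 39.7 to 4611 with a median of 1029 in siFASRL. The lowest was RPL26L1 in the siNC groups, RPLP0 in HepG2 siFASRL and RPS27L in LM3 siFASRL. The median coefficient of variation between replicates was 5.04% in HepG2 siNC, 8.83% in HepG2 siFASRL, 7.62% in LM3 siNC and 2.63% in LM3 siFASRL.

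RACK1 and FAU encode ribosomal proteins under other names and are not among the 58. FAU, whose product holds RPS30 fused to a ubiquitin-like protein, rose by 0.53 in HepG2 (limma adjusted p = 6.47e-05) and 0.54 in LM3 (limma adjusted p = 0.00027), higher in 3 of 3. RACK1, a signalling scaffold on the head of the small subunit, rose by 0.18 and 0.28 (limma adjusted p = 0.0078 and 0.00121, higher in 3 of 3), and under quantile normalization it was -0.03 in HepG2 and 0.00 in LM3.

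Whether a gene responded differently in HepG2 and LM3 was tested with an interaction term over the 12 libraries. The LM3 effect was higher than the HepG2 effect for 10 of the 58 genes and lower for 2, beside 19.5% and 27.2% of the 8285 genes tested. The median difference was 0.13, against -0.05 over all tested genes. Without HepG2 siFASRL replicate 1 and LM3 siNC replicate 1 together, an alternative chosen after seeing the data, 7 were higher and 4 lower and the median difference was 0.04. With median-of-ratios scaling, 19 were higher and 1 lower.

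The difference was positive for RPLP0 (0.77, limma adjusted p = 0.000555), RPL22 (0.59, 7.91e-05) and RPL3 (0.58, 0.00015), so that the falls of these genes were larger in HepG2, or for RPL3 seen in HepG2. It was negative for RPS27L (-0.66, limma adjusted p = 0.000318). For RPL26L1 it was -0.40 (standard error 0.16, limma adjusted p = 0.0496). This last call was lost without any 1 of 9 of the 12 libraries, which were the 3 of HepG2 siFASRL, siNC replicate 2 of HepG2, the 3 of LM3 siFASRL and siNC replicates 1 and 2 of LM3, with values from -0.44 to -0.27. It was also lost with a pseudocount of 0.1, with no filter on low values, with median-of-ratios scaling and with replicate number as a block (limma adjusted p = 0.0593). Others with a higher LM3 effect were RPL10, RPL13A, RPL19, RPL31 and RPL4, with differences from 0.29 to 0.46. For RPLP1 the difference was 0.25 and for RPLP2 0.12, neither past the threshold, and without HepG2 siFASRL replicate 1 and LM3 siNC replicate 1 they were -0.04 and -0.13.

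Levels in the control groups were compared between the lines, where the line and anything handled per line cannot be told apart. Of the 58 genes, 21 were higher and 17 lower in LM3 siNC than in HepG2 siNC, beside 40.4% and 40.6% of the 8176 tested genes, and the median difference was 0.10, against 0.00 over all tested genes. Scaling by the summed other genes moved the median of all genes by 0.10 and gave 28 higher and 9 lower, and quantile normalization moved it by 0.14 and gave 19 and 16. Without LM3 siNC replicate 1, 29 were higher and 15 lower. Of the large subunit genes 16 were higher and 11 lower, and of the small subunit genes 5 were higher and 6 lower. Across the 58 genes, the mean log2 levels of the siNC groups had Pearson's r of 0.933, although genes are not independent replicates.

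RPL35, which docks factors at the tunnel exit, had 866, 986 and 876 in HepG2 siNC and 2013, 2181 and 2379 in LM3 siNC. RPL31, which also lies at the tunnel exit, had 694, 689 and 724 in HepG2 siNC and 1432, 1478 and 1420 in LM3 siNC. RPL7A, an RNA-binding protein of the large subunit, had 1033, 1089 and 1036 in HepG2 siNC and 1981, 2218 and 2216 in LM3 siNC. These 3 genes had no overlap between the lines and the highest differences, 1.27 (limma adjusted p = 1.46e-06), 1.04 (limma adjusted p = 3.4e-07) and 1.02 (limma adjusted p = 1.31e-06), higher in 3 of 3 LM3 libraries. Among the lowest differences were those of RPL37A (-0.58) and RPS18 (-0.55). At the P-stalk, RPLP0 was higher in LM3 (0.63, limma adjusted p = 0.00072, 3 of 3 libraries) and RPLP2 was lower (-0.44, limma adjusted p = 0.00558, 3 of 3 libraries). RPLP1 had 0.27 (limma adjusted p = 0.0914, higher in 2 of 3 libraries), and it passed without HepG2 siNC replicate 2 (0.36, limma adjusted p = 0.0429), without LM3 siNC replicate 1 (0.42, limma adjusted p = 0.00245) and with scaling by the summed other genes (0.38, limma adjusted p = 0.0288).

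**Figure D5:**
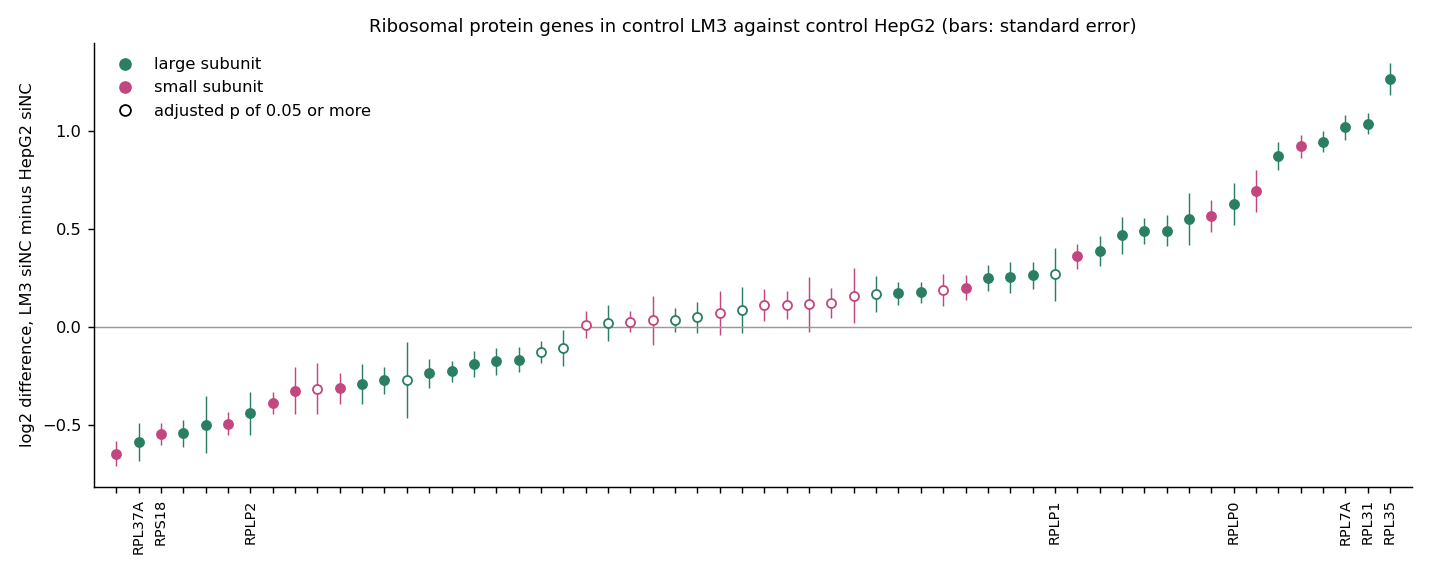
Log2 difference of LM3 siNC minus HepG2 siNC for each of the 58 ribosomal protein genes, ordered by value, with names given for some genes, standard errors and open points where the limma adjusted p was 0.05 or more. RPL35 (1.27), RPL31 (1.04) and RPL7A (1.02) lie highest, and RPL37A (-0.58) and RPS18 (-0.55) near the lower end, while scaling by the summed other genes raises the count of higher genes from 21 to 28.

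Of the 58 genes, 48 matched the RefSeq promoter table, which gives 300 bases for each gene. A run of at least 8 C or T that touches the 5 bases on either side of the start, on the transcribed strand, was found in 33 of 48 (68.8%), against 11.9% of the 7111 promoters of listed genes and 11.3% of all 27305. In the promoters printed above the run had 10 bases in RPLP0, 11 in RPLP1, 17 in RPLP2 and 14 in RPL26, but 2 in RPL26L1, whose start in this table lies inside the gene. CCGGAAG, searched on both strands, was in 19 of 48 promoters (39.6%, against 18.0% of listed genes and 10.7% of all), CACGTG in 3 (6.2%, against 9.8% and 7.4%) and TATAAA in 4 (8.3%, against 6.3% and 12%). The 33 genes with the run changed by a median of 0.21 in HepG2 and 0.39 in LM3, and the 15 without it by 0.34 and 0.41. Of those with the run 18 rose in HepG2 and 31 in LM3, and of those without it 12 and 13, beside 44.8% and 33.9% of all tested genes, counts not repeated under quantile normalization. A match describes letters and is no evidence of a bound factor.

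Other properties were compared across the 58 genes as a description. Coding GC content ran from 42.1% to 63.0%, and its Pearson's r with the log2 fold change was -0.015 in HepG2 and 0.066 in LM3, which without RPLP0 became 0.0739 and 0.291 (57 genes), while Spearman's rho over all 58 was 0.0747 and 0.276. The r with the log2 mean siNC level was -0.288 in HepG2 and -0.192 in LM3. Chromosome 19 held 10 of the genes and the rest lay on 16 other chromosomes. Pseudogenes named after the gene are annotated for 55 of the 58, with a median of 9 and up to 91, for RPL23A, so reads of most of these genes could be shared with copies.

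The mitochondrial ribosomal protein genes, which build the separate ribosome of that organelle, were set beside the cytosolic ones. Of 66 listed, 50 rose and 6 fell in HepG2 (median log2 fold change 0.35), and 47 rose and 3 fell in LM3 (median 0.31), beside 44.8% and 44.3% of all tested genes in HepG2 and 33.9% and 43.5% in LM3, and under quantile normalization it was 41 and 6 in HepG2 and 42 and 2 in LM3. As a share of all listed genes they took 0.829% ± 0.0111 in siNC and 1.02% ± 0.0271 (SD, n = 3) in siFASRL of HepG2, and 0.916% ± 0.0244 and 1.07% ± 0.00264 (SD, n = 3) in LM3. No fall of the size of that of RPLP0 was among them, the lowest log2 fold changes being -0.59 in HepG2 and -0.43 in LM3.

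Other genes whose mRNAs carry a 5 prime TOP motif formed a fixed list of 22, with 15 listed in the data. In HepG2 11 rose and 1 fell (median 0.32), and in LM3 12 rose and 1 fell (median 0.38), which became 6 and 2, and 7 and 1, under quantile normalization. Of all tested genes, 44.8% rose and 44.3% fell in HepG2 and 33.9% and 43.5% in LM3. NPM1, a nucleolar chaperone of ribosome assembly, had 925, 795 and 975 in HepG2 siNC and 1513, 1519 and 1537 in HepG2 siFASRL, and 1264, 1052 and 1103 in LM3 siNC and 2082, 1966 and 2116 in LM3 siFASRL. It rose by 0.77 and 0.85, with all siFASRL above all siNC libraries. TRAP1, a mitochondrial chaperone, was the 1 gene that fell in both lines (-0.80 and -0.33).

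Of the 16 dedicated chaperones and importers of ribosomal proteins, 13 were listed, and 10 rose and 0 fell in HepG2 (median 0.46), while 12 rose and 0 fell in LM3 (median 0.44), beside 44.8% and 44.3% of all tested genes in HepG2 and 33.9% and 43.5% in LM3. Under quantile normalization 11 rose in HepG2 and 12 in LM3, and 0 fell. The highest log2 fold changes were those of TNPO1, an import receptor, at 0.77 in HepG2 (0.45 in LM3), and of NLE1, an assembly factor of the large subunit, at 0.92 in LM3 (0.64 in HepG2). KPNB1 and IPO5, import receptors for several ribosomal proteins, rose by 0.54 and 0.46 in HepG2 and by 0.57 and 0.46 in LM3.

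RPL5 and RPL11 bind 5S ribosomal RNA and, outside the ribosome, the ubiquitin ligase MDM2. RPL5 had 601, 539 and 627 in HepG2 siNC and 825, 829 and 802 in HepG2 siFASRL, and 928, 758 and 769 in LM3 siNC and 1126, 1173 and 1127 in LM3 siFASRL. It rose by 0.48 in HepG2 (limma adjusted p = 9.28e-05) and 0.49 in LM3 (limma adjusted p = 0.000584), higher in 3 of 3, and under quantile normalization it was 0.21 in HepG2 and 0.26 in LM3, where the call was lost (limma adjusted p = 0.0522). RPL11 rose by 0.55 and 0.49, which were 0.30 and 0.20 under quantile normalization. Of the 12 genes of the list around the 5S RNP, 11 were listed, and 6 rose and 3 fell in each line, with medians of 0.42 in HepG2 and 0.39 in LM3, beside 44.8% and 44.3% of all tested genes in HepG2 and 33.9% and 43.5% in LM3, and under quantile normalization 6 and 3 in HepG2 and 5 and 3 in LM3.

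RRS1 and RPF2, which place the 5S particle in the large subunit, rose in both lines, by 0.82 and 0.60 in HepG2 and 0.79 and 0.86 in LM3. Among the genes that fell were CDKN1A (-0.89 and -2.01), MDM4 in HepG2 (-0.61) and MDM2 in LM3 (-0.33). CDKN1A, the cell cycle inhibitor p21, had 165, 160 and 160 in HepG2 siNC and 91.0, 84.7 and 85.0 in HepG2 siFASRL, and 13.6, 12.4 and 10.9 in LM3 siNC and 2.37, 2.42 and 2.08 in LM3 siFASRL. In each line every siFASRL library lay below every siNC library.

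Of the 15 genes of the mTORC1 and S6 kinase list, 9 were listed, and 4 rose and 3 fell in HepG2 (median 0.10) and 3 rose and 2 fell in LM3 (median 0.12), beside 44.8% and 44.3% of all tested genes in HepG2 and 33.9% and 43.5% in LM3. Under quantile normalization 4 rose and 2 fell in HepG2 and 6 and 2 in LM3. EIF4EBP2, a repressor of cap-dependent translation, fell by 0.86 and 1.03. DEPTOR also fell in both lines (-0.30 and -0.22), at low siNC means of 2.43 in HepG2 and 1.13 in LM3. AKT1S1 rose by 0.585 in HepG2 and 0.28 in LM3, and EIF4E by 0.29 and 0.25. LARP1 rose (0.32) and TSC2 fell (-0.32) in HepG2, and neither passed the threshold in LM3. MYC, a transcription factor that drives ribosomal protein genes, averaged 42.1 ± 2.25 in siNC and 65.3 ± 3.82 (SD, n = 3) in siFASRL of HepG2, and 58.5 ± 2.24 and 116 ± 3.25 (SD, n = 3) in LM3, and it rose by 0.62 and 0.98. MTOR had 0.10 and 0.05, and neither passed the threshold.

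The 5 genes outside the family whose pair of log2 fold changes was nearest to that of RPLP0, among 5594 with a mean of at least 5 in each siNC group, were VIM (-2.24 in HepG2 and -2.45 in LM3), TMEM37 (-2.13 and -2.54), MSMO1 (-1.98 and -2.23), CREB3L3 (-1.77 and -2.55) and TM9SF1 (-2.54 and -1.48). Their distances from the pair of RPLP0 were 2.90, 2.95, 3.24, 3.26 and 3.30, so none lay close to it. VIM, the intermediate filament protein vimentin, had 272, 294 and 286 in HepG2 siNC and 57.8, 61.4 and 59.0 in HepG2 siFASRL, and 352, 387 and 381 in LM3 siNC and 61.4, 69.9 and 72.1 in LM3 siFASRL.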

How the data were processed

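Each deposited value is a normalized RSEM expression value computed by the authors. Whether these are FPKM or TPM is not stated. The submitters' notes name HISAT2, Bowtie2 and hg19, whereas the chromosome accessions in the tables are those of GRCh38. Coordinates here are from the RefSeq table of GRCh38.p14 and strands from GENCODE v29, since the strand given in the tables was not used. How the 8842 listed genes were chosen is not stated. A set of 6 columns that repeat the LM3 values was not used. Genes reaching 1 in 3 or more libraries of a fit were fitted on log2(value + 1) with limma 3.58.1 (R 4.3.3), with Benjamini-Hochberg adjustment over all tested genes, and called at an adjusted p under 0.05. The fits were tried on simulated data. Genes are named as P-stalk genes, paralogue pairs, the 3 highest and 3 lowest per line, those past a log2 fold change of 1, the 5 largest differences between lines, the 3 highest and 3 lowest between controls, the 5 most abundant, RPL5, RPL11, RACK1 and FAU. Some genes that these rules pick are not reported here. Other names, those picked from the lists included, were chosen with the values in view. The members and lists were chosen with earlier results of these data known.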

Additional observations from a re-analysis of the deposited data

Results flagged for a closer look

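The effect of siFASRL differed between HepG2 and LM3, by the limma interaction test over the 12 libraries, for genes that include the 5 given here. The LM3 effect minus the HepG2 effect on the log2 scale was 0.77 for RPLP0 (-3.95 in LM3 and -4.72 in HepG2), 0.59 for RPL22 (-0.47 and -1.05) and 0.58 for RPL3 (0.10 and -0.48). It was -0.66 for RPS27L (-0.36 and 0.30) and -0.40 for RPL26L1 (1.37 and 1.77). The limma adjusted p was 0.0496 for RPL26L1 and at most 0.000555 for the others, and the RPL26L1 call was lost without any 1 of 9 libraries.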

How the results depend on the processing

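The depth of the libraries is unknown, so counting error cannot be given, and the listed genes are a subset. Of the counts of genes past the threshold under the alternatives, 133 were within 1.5 times the value reported and 27 were not. Of the values of single named genes, 921 kept their direction and their side of the threshold, 39 lost the call, 10 gained it and 10 changed sign. Why values moved was not tested.

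With a fold threshold as well, the counts of higher and lower genes were 1 and 2 in HepG2, 1 and 1 in LM3, 0 and 0 for the difference between lines and 3 and 0 between the controls. Under quantile normalization they were 14 and 10 in HepG2 and 25 higher in LM3, and the sign changed in HepG2 for RPLP1 (-0.12), RPLP2 (-0.11) and RACK1 (-0.027), in LM3 for RPLP2 (-0.011) and RPL3 (-0.041), and between the controls for RPL7 (-0.018). Scaling by the summed other genes gave 9 lower genes between the controls.

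For the difference between lines, 1 gene was lower in LM3 with a pseudocount of 0.1, with no filter, with median-of-ratios scaling (and 19 higher) and with the replicate block, and from 1 to 2 were lower with 1 replicate left out. With 1 replicate left out, RPLP2 ran from -0.0196 to 0.199 in this difference and RPL7 from -0.0167 to 0.101 between the controls, both lowest without LM3 siNC replicate 1. Without HepG2 siFASRL replicate 1 and LM3 siNC replicate 1 together, chosen after seeing the data, 4 were lower, with RPLP1 at -0.044 and RPLP2 at -0.13. A correction for coding GC content, also chosen after seeing the data, gave 38 higher and 4 lower genes in HepG2 and 54 and 4 in LM3.

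With replicate number as a block, 39 were higher and 4 lower in HepG2 and 52 and 4 in LM3. Across genes, deviations of replicates with the same number had Pearson's r of 0.312, 0.363 and -0.195 in HepG2 and -0.083, 0.0908 and -0.163 in LM3, so the numbers showed no steady pairing.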
